A study of Gallus gallus with 6 samples.

Results

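Genes for voltage-gated, TRP and related ion channels were compared between anterior and posterior half-sclerotomes of wild-type chick embryos. Members were all rows of the authors' gene table whose symbol begins with KCN and a letter, CACNA, CACNB or CACNG, SCN and a digit, TRPC, TRPM or TRPV and a digit, CLCN, HCN and a digit, or PIEZO. The row of CACNA1S, a calcium channel of skeletal muscle, was left out. This gave 126 of 17108 rows, with 124 different symbols. The symbols brought in some products that are not themselves channels, such as TRPC4AP, a protein named for its association with TRPC4, and KCNRG, a soluble regulator of potassium channels. They also brought in channels that are not gated by voltage, among them inward rectifier and leak potassium channels.

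The sclerotome is the ventral part of the somite, which forms vertebrae and ribs. The embryos were at embryonic day 3, Hamburger Hamilton stage 18, and each library was a pool of 100 half-sclerotomes taken from the 11th to the 23rd most recent somite. Both groups were wild type and untreated, with 3 libraries of anterior and 3 of posterior tissue. How many embryos entered a pool, and whether pools came from separate embryos, is not given in the labels, so the authors' p-values may partly measure technical spread.

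Ion channels let ions cross membranes and thereby set the voltage and the calcium level of a cell. Potassium channels hold the resting voltage negative or bring it back after excitation, sodium and calcium channels carry excitation inward, and calcium that enters also acts as a signal. TRP channels are cation channels that answer to lipids, temperature, store depletion or other stimuli, PIEZO channels open when the membrane is stretched, and several CLC proteins work in endosomes and lysosomes. In trunk somites, neural crest cells and motor axons travel through the anterior sclerotome and avoid the posterior one, so the anterior tissue can hold cells and axons of the nervous system.

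All levels below are the authors' FPKM values (fragments relative to transcript length and to the size of the library), 1 per group, with no value per library. A level is thus scaled by transcript length, and no replicate error can stand beside it. Without counts in the table, read depth is unknown. A gene was called when the q in the authors' deposited table was under 0.05. Rows that the authors marked as not tested were never called, and nothing can be said of a difference in them.

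Most of these genes were low or listed at 0 in both tissues. The authors tested 41 of the 126 rows, or 32.5%, against 61.5% of all 17108 rows. The tested members had a median level of 4.22 FPKM over both groups, against 17.9 FPKM for all tested rows. Among them 11 were at 10 FPKM or more, 7 between 5 and 10 FPKM and 23 under 5 FPKM. Of the 85 rows not tested, 77 stayed under 1 FPKM in both groups and 11 of these were listed at 0 in both.

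**Figure D1:**
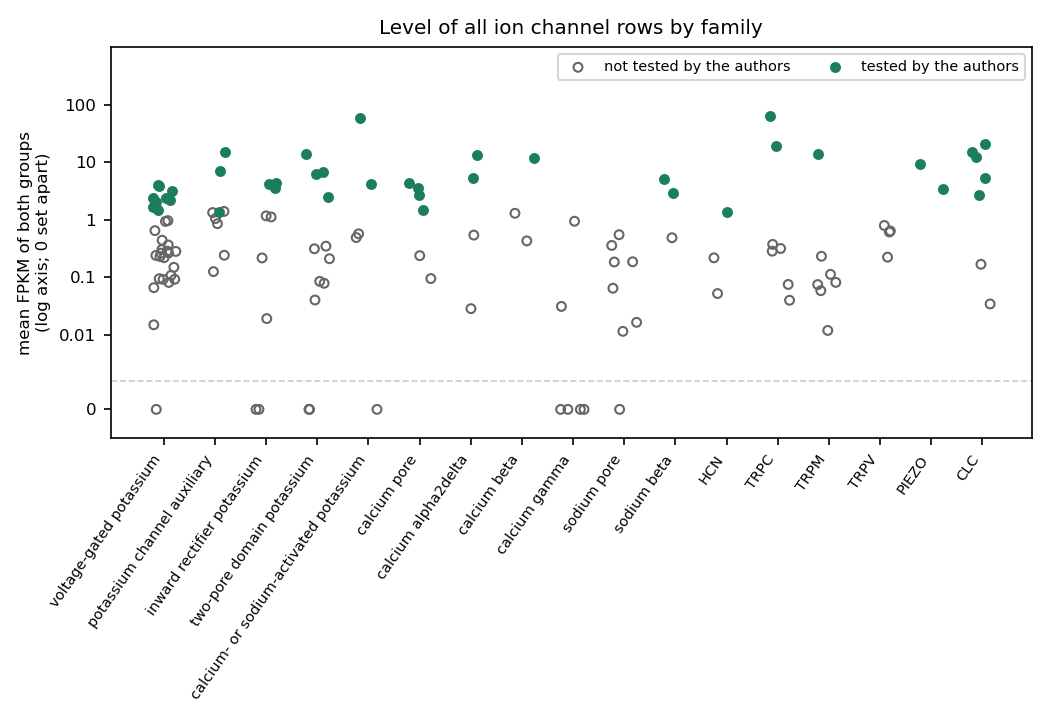
Mean FPKM of both groups (vertical, log axis with 0 set apart) for all 126 ion channel rows, in columns by channel family. Filled points are the 41 rows the authors tested and open points the 85 they did not. No sodium channel pore, calcium channel gamma or TRPV row was tested, and all of these lie under 1 FPKM.

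Of the 41 tested members, 1 was called higher in posterior and 1 higher in anterior half-sclerotomes. Over all 10529 tested rows, 3.57% were called higher in posterior and 3.5% higher in anterior, or 7.07% in either direction, against 4.88% of the members. With only 2 members called, their share is a description. The members also had lower levels than tested rows in general, and the share called depended on level, as given below. The median log2 ratio of posterior over anterior was 0.03 for the tested members and 0.00 for all tested rows. Values leaned neither way, with 21 members higher in posterior and 20 in anterior. At an unadjusted p under 0.05 in the authors' deposited table, 9 of the 41 members passed, or 22.0%, against 16.1% of all tested rows.

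KCNC4 was the gene called in posterior. It encodes Kv3.4, a fast voltage-gated potassium channel that helps to end action potentials. KCNC4 measured 0.550 FPKM in anterior tissue against 2.40 FPKM in posterior tissue. The level was 4.37-fold higher in posterior, a log2 ratio of 2.13, with q = 0.00139 in the authors' deposited table, the lowest q that the table reaches, shared by 380 rows. With a pseudocount of 1 FPKM, which weighs on low levels, the log2 ratio was 1.13. KCNC4 was the only tested member with a difference of 2-fold or more, which 5.46% of all tested rows had. The gene lies on chromosome 26 from 1310297 to 1327877 of galGal4, and its locus is not shared with another row. Its close relative KCNC2 (Kv3.2) had 2.09 and 2.35 FPKM in these tissues and was not called (authors' deposited table, q = 0.911). KCNC1 (Kv3.1), at 0.253 and 0.182 FPKM, was not tested. Whether KCNC4 and KCNC2 differ in their ratio was not tested.

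PIEZO2 was the gene called in anterior. It encodes a mechanically activated cation channel that serves touch and the sense of limb position in mammalian sensory neurons. PIEZO2 measured 4.45 FPKM in anterior tissue against 2.44 FPKM in posterior tissue. The level was 1.82-fold higher in anterior, a log2 ratio of -0.87, also at q = 0.00139 in the authors' deposited table. It lies on chromosome 2 from 97607396 to 97902750 of galGal4. The other gene of the family, PIEZO1, which senses blood flow in mammalian vessels, was at 8.92 and 9.42 FPKM (authors' deposited table, q = 0.924). Reads of PIEZO1 may be divided with CTU2, which the table places in the same locus. The difference between the ratios of PIEZO1 and PIEZO2 was not tested.

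**Figure D2:**
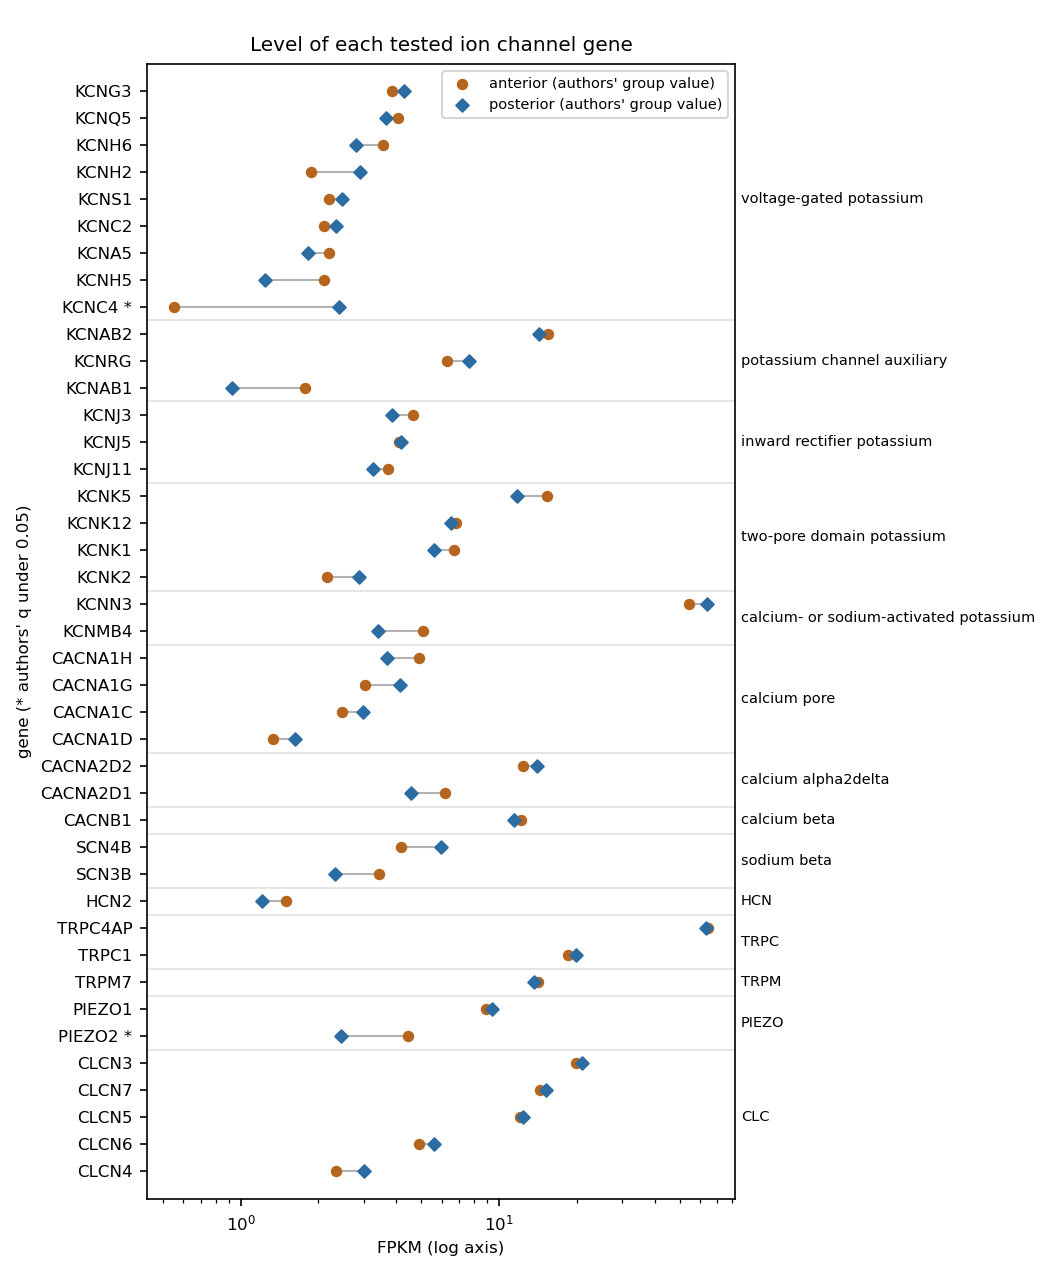
FPKM (horizontal, log axis) of the 41 tested genes, grouped by family, in anterior (circles) and posterior (diamonds) half-sclerotomes, 1 value per group by the authors and therefore without error bars. KCNC4, at 0.550 and 2.40 FPKM, and PIEZO2, at 4.45 and 2.44 FPKM, carry a star for q under 0.05, and the symbols of most other genes lie close together.

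Markers of other cell types were present in these pools, and several of them differed between the groups. Of 10 neural crest and Schwann precursor markers, 8 were found. Their levels summed to 258 FPKM in anterior and 75.0 FPKM in posterior, with 6 called in anterior. Among them only ETS1 was higher in posterior, at 50.9 and 62.6 FPKM. It was not called and made up most of the posterior sum. The sum of 9 skeletal muscle precursor markers was 136 and 50.9 FPKM, with 6 called in anterior. The sum of 9 neuron markers was 87.8 and 52.0 FPKM, with 1 called in anterior. This was TUBB3, which made up most of both sums, at 64.4 and 36.4 FPKM. Among the neuron markers only SNAP25, which was not tested, was higher in posterior, at 0.0898 and 0.110 FPKM. All 10 endothelial markers were found, with sums of 138 and 193 FPKM and 6 called in posterior. None of these markers was listed at 0 in either group. Red blood cell markers, found for 4 of 6 symbols, summed to 525 and 446 FPKM, and none was called. HBG1 made up most of these sums, at 512 and 434 FPKM, while HBAD was higher in posterior, at 6.81 and 7.38 FPKM. Both HBZ rows were listed at 0 in both groups. Of 10 sclerotome markers, 7 were found, from 1.45 FPKM for UNCX in anterior upward, and the whole list summed to 1052 and 1165 FPKM. This near-equal sum covers 3 markers called in posterior and 1 in anterior. Its highest values were those of PAX1, at 367 and 490 FPKM and called in posterior, and FOXD1. FOXD1, at 407 and 319 FPKM, and FOXC2, at 185 and 179 FPKM, were lower in posterior and not called. UNCX was at 1.45 and 87.8 FPKM, and TBX18 at 32.5 and 3.10 FPKM. With only anterior and posterior tissue to compare, any called gene goes along with every list whose sum is higher in the same tissue. The directions of PIEZO2 and KCNC4 therefore cannot point to a cell type. The part of these cells in either result was not tested. In pooled tissue, fewer cells of a type and less RNA per cell cannot be told apart.

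**Figure D3:**
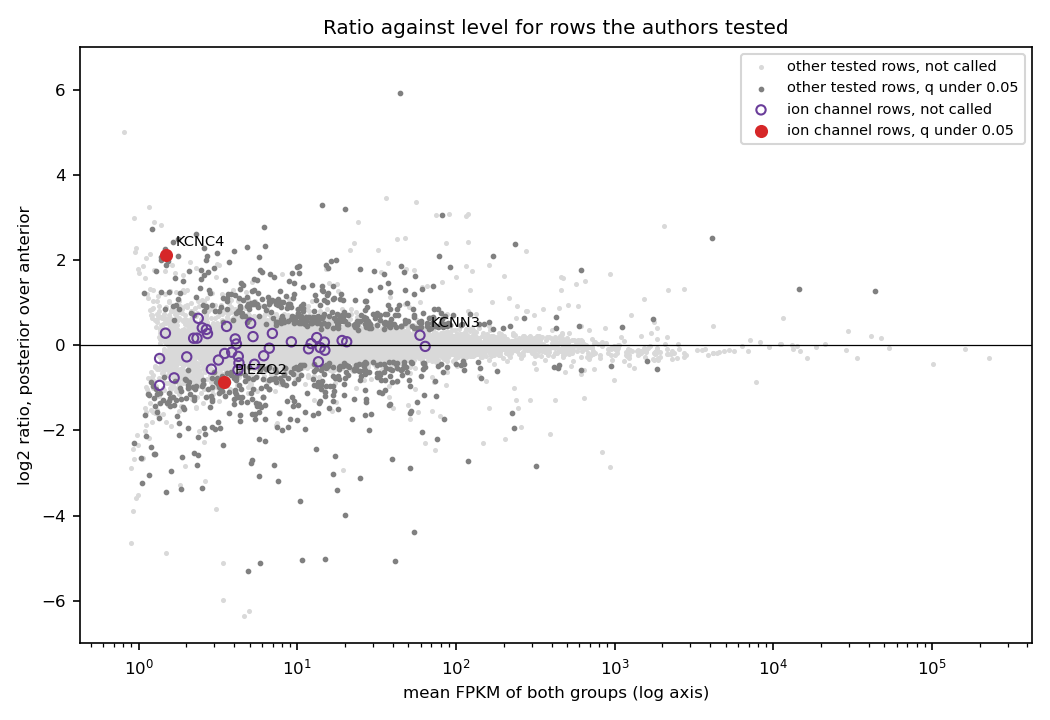
Log2 ratio of posterior over anterior (vertical) against mean FPKM of both groups (horizontal, log axis) for rows that the authors tested and that were above 0 in both groups. Ion channel rows are large symbols, filled red where q was under 0.05, which holds for KCNC4 (2.13) and PIEZO2 (-0.87). Most channels lie at the low end of the level range.

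The size of difference that the authors' test could call depended on the level. Among tested rows with a mean of 1 to 2 FPKM, the smallest called log2 difference was 0.60 either way, and 13.0% were called. From 2 to 5 FPKM, where 18 of the 41 members lie, the smallest called difference was 0.50 and 9.84% were called. KCNC4 was the called member among 5 at 1 to 2 FPKM, and PIEZO2 among these 18. No member with a mean of 5 FPKM or more was called. Above 20 FPKM the smallest was 0.36, and 5.2% were called. Of the 41 members, 33 had a log2 ratio within 0.5 either way, a smaller share than the 86.0% of all tested rows. The median absolute log2 ratio was 0.26 for the members and 0.15 for all tested rows. Between 2 and 5 FPKM no row with a ratio within 0.5 was called, while at higher levels some were. A missing call therefore does not show equal levels.

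Voltage-gated potassium channels formed the largest family, with 31 rows, of which 9 were tested. Apart from KCNC4, all 8 tested genes lay between 1.24 and 4.27 FPKM in both groups. KCNG3, at 3.85 and 4.27 FPKM in anterior and posterior, was the highest by mean of both groups. It encodes a modifier subunit that forms no channel alone and joins Kv2 subunits. KCNS1, another modifier of Kv2 channels, was at 2.20 and 2.46 FPKM. The Kv2 gene KCNB2 was at 1.11 and 0.812 FPKM and was not tested. Both modifiers were therefore listed above KCNB2 on this scale. KCNG3 shares its locus with COX7A2L, a gene at 26.4 and 24.3 FPKM, so its level is uncertain.

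The ether-a-go-go group showed unequal values that did not pass the test. KCNH2, whose product (hERG in human) repolarises heart muscle, was at 1.86 FPKM in anterior tissue and at 2.89 FPKM in posterior (authors' deposited table, q = 0.303). Its relative KCNH6 was at 3.57 and 2.80 FPKM (authors' deposited table, q = 0.507). KCNH5 was at 2.11 and 1.24 FPKM (authors' deposited table, q = 0.125). KCNQ5, which encodes a subunit of the M-type potassium current, was at 4.08 and 3.64 FPKM. KCNA5 (Kv1.5) was at 2.20 and 1.82 FPKM.

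Among auxiliary potassium channel genes, KCNAB2 and KCNRG lay above every voltage-gated potassium pore gene. KCNAB2, which encodes a cytoplasmic beta subunit of Kv1 channels, was at 15.5 FPKM in anterior tissue and at 14.3 FPKM in posterior. KCNRG was at 6.29 and 7.62 FPKM. KCNAB1, another beta subunit gene, was at 1.78 and 0.926 FPKM. This was the largest ratio among tested members that were not called, a log2 ratio of -0.94 with q = 0.823 in the authors' deposited table. KCNAB1 shares its locus with SSR3, a gene at 52.3 and 51.1 FPKM, so reads could be divided between them. The single-span subunit genes KCNE2, KCNE3 and KCNE4 had the highest values in anterior tissue among untested members. KCNE2 was at 2.14 and 0.509 FPKM over a locus of only 378 bases, KCNE4 at 1.49 and 0.592 FPKM over 492 bases, and KCNE3 at 1.48 and 1.29 FPKM.

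Of 12 genes for leak channels, which are open at rest, 4 were tested. KCNK5, which encodes the acid-sensitive leak channel TASK-2, was at 15.4 FPKM in anterior tissue and at 11.8 FPKM in posterior. Its log2 ratio was -0.39, with q = 0.0830 in the authors' deposited table, so it was not called. KCNK12, KCNK1 and KCNK2 were at 6.82 and 6.49 FPKM, at 6.67 and 5.61 FPKM and at 2.16 and 2.87 FPKM. KCNK2 encodes TREK-1, a leak channel that responds to stretch. The other 8 genes of the family were not tested and did not exceed 0.373 FPKM.

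Of 9 inward rectifier rows, 3 were tested. KCNJ3 and KCNJ5, whose products combine in the G protein-gated channel of the heart atrium, were at 4.63 and 3.86 FPKM and at 4.09 and 4.17 FPKM. KCNJ11, the pore of ATP-sensitive potassium channels, was at 3.71 and 3.25 FPKM. None of these 3 was called or passed an unadjusted p of 0.05 in the authors' deposited table. KCNJ6, another subunit of G protein-gated channels, was listed at 0 in both groups over a locus of only 981 bases.

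Among calcium-activated potassium channels, KCNN3, an SK channel gene, came next to TRPC4AP among all members by mean level and was above it in posterior tissue, at 54.5 FPKM in anterior tissue and at 64.1 FPKM in posterior (authors' deposited table, q = 0.722). The row covers 554 bases of an unplaced scaffold, from 3770 to 4323, so its level stands for a fragment of a gene. KCNMB4, a beta subunit of the large-conductance BK channel, was at 5.06 and 3.39 FPKM (authors' deposited table, q = 0.263). The BK pore gene, listed as kcnma1, was at 0.679 and 0.294 FPKM and was not tested.

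Calcium channel subunits gave no call among 7 tested of 19 rows. At an unadjusted p under 0.05 in the authors' deposited table there were 3 of them, CACNA1G, CACNA1H and CACNA2D1. Of all tested rows, 7.07% were called and 16.1% passed that unadjusted p. With 7 tested rows, these counts are a description only. CACNA1G and CACNA1H encode T-type pores, which open near the resting voltage. CACNA1G was at 3.04 FPKM in anterior tissue and at 4.12 FPKM in posterior (log2 ratio 0.44, authors' deposited table, q = 0.0650). CACNA1H was at 4.90 and 3.67 FPKM (log2 ratio -0.42; authors' deposited table, q = 0.150). These T-type genes thus had ratios of opposite sign, but neither was called and the difference between them was not tested.

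The L-type pores CACNA1C and CACNA1D, which need stronger depolarisation to open, were at 2.46 and 2.97 FPKM and at 1.33 and 1.62 FPKM. CACNA2D1 and CACNA2D2 encode subunits that bring pores to the cell surface. CACNA2D2 was at 12.4 and 14.1 FPKM, and CACNA2D1 at 6.19 and 4.54 FPKM (authors' deposited table, q = 0.148). CACNB1, a cytoplasmic beta subunit, was at 12.1 and 11.4 FPKM. Of 6 gamma subunit rows none was tested, and the highest was CACNG3 at 0.871 and 0.998 FPKM. Listed at 0 in both groups were 4 rows, which are repeated entries of the symbols CACNG1 and CACNG4. On chromosome 18 each CACNG1 entry lies beside a CACNG4 entry, with gaps of 3253 and 3426 bases. How reads that match repeated entries were counted is not given, so these 0 values are uncertain.

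Sodium channel pores were near 0 FPKM. None of 8 rows was tested, and their levels summed to 1.52 FPKM in anterior and 1.20 FPKM in posterior. SCN8A, the highest, was at 0.583 and 0.508 FPKM. SCN3A and SCN2A were at 0.321 and 0.0484 FPKM and at 0.107 and 0.0213 FPKM. SCN9A and SCN4A had higher values in posterior, at 0.302 and 0.408 FPKM and at 0.171 and 0.195 FPKM. Of the 9 neuron markers found, 3 were tested, and TUBB3, at 64.4 and 36.4 FPKM, was the one called. The part of neurons in the sodium channel levels was not tested. Of 3 beta subunit genes, whose products are also adhesion proteins, 2 were tested. SCN4B was at 4.19 and 5.97 FPKM and SCN3B at 3.42 and 2.32 FPKM, with a q of 0.533 and 0.414 in the authors' deposited table. Among HCN genes, whose products drive pacemaker currents, HCN2 was tested, at 1.50 and 1.21 FPKM (authors' deposited table, q = 0.789).

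TRP genes were represented by few members at high levels. Of 18 rows, 3 were tested. By mean of both groups TRPC4AP was the highest of all members, at 64.6 FPKM in anterior tissue and at 63.3 FPKM in posterior. TRPC1, a channel subunit tied to calcium entry, was at 18.4 and 19.9 FPKM. TRPM7, which joins a magnesium-permeable channel to a kinase, was at 14.2 and 13.7 FPKM. The q in the authors' deposited table was 0.963, 0.840 and 0.926 for these genes. TRPV1, TRPV2 and TRPV3, known from heat sensing in mammals, lie close together on chromosome 19 and were all at 0.513 to 0.812 FPKM. No other TRP gene exceeded 0.422 FPKM.

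CLC genes of endosomes and lysosomes gave 5 tested members, each with a somewhat higher value in posterior. CLCN3 was at 19.9 and 21.0 FPKM, CLCN7, the lysosomal exchanger, at 14.4 and 15.2 FPKM, and CLCN5 at 12.1 and 12.4 FPKM. CLCN6 and CLCN4 were at 4.89 and 5.62 FPKM and at 2.33 and 3.01 FPKM. The log2 ratios of these 5 genes ran from 0.04 to 0.37, and none was called or passed an unadjusted p of 0.05 in the authors' deposited table. The surface channel genes CLCN1 and CLCN2 did not exceed 0.207 FPKM.

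Rows that were not tested leaned toward anterior, as such rows did in general. Of 66 untested members above 0 in both groups, 39 were higher in anterior, or 59.1%, against 54.8% of all untested rows above 0 in both. Their median log2 ratio was -0.20, against -0.13 for those rows. A further 8 of the 85 untested members were listed at 0 in posterior only, KCNIP2 and KCNK9 among them, and 0 in anterior only. Over all 6579 untested rows these counts were 583 and 324. None of these rows was tested, so no difference is read from them. None of the 8 exceeded 0.249 FPKM in anterior.

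Some members that lie within 200 kb of each other on galGal4 had very different levels. KCNK5 is 69735 bases from KCNK17, which was at 0.0799 FPKM in anterior and listed at 0 in posterior, and it is 99483 bases from KCNK16, listed at 0 in both. KCNJ5 is 5953 bases from KCNJ1, which was listed at 0 in both groups over a locus of only 1116 bases. SCN4B is 6320 bases from SCN2B, at 0.598 and 0.369 FPKM. KCNC4 is 85125 bases from KCNA2, at 0.177 FPKM in anterior tissue and at 0.119 FPKM in posterior. In each of these pairs 1 gene was tested, while its neighbours of the same family were under 1 FPKM in both groups.

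Beside the members, 3 lists were taken: other cation and anion channels, calcium entry, store and pump genes, and channel partners and regulators. They held 99 symbols, of which 83 were found and 51 tested. By the q of the authors' deposited table, 4 were called in posterior and 2 in anterior, or 11.8%, against 7.07% of all tested rows. The lists were chosen with earlier results of these data known, so these shares are a description and no test. The median log2 ratio of the 51 tested genes was 0.09. Among 9 tested partners and regulators, DPP10, which encodes an auxiliary subunit of Kv4 channels, was at 17.5 FPKM in anterior tissue and at 9.60 FPKM in posterior (authors' deposited table, q = 0.00139). The Kv4 pores found as members, KCND2 and KCND3, were not tested, at 0.205 and 0.251 FPKM and at 0.154 and 0.406 FPKM. SGK1, a kinase that raises the surface level of several channels, was at 3.43 and 6.50 FPKM (authors' deposited table, q = 0.00865). REM1, a small G protein that inhibits calcium channels, was at 0.472 and 1.53 FPKM and was not called (authors' deposited table, q = 0.323).

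Among 21 tested genes of other channels, 2 were called, or 9.52%, both in posterior. Over all tested rows, 3.57% were called higher in posterior and 7.07% in either direction. This list too was chosen with earlier results known, so its share is a description. ASIC2, an acid-sensing cation channel, was at 3.39 FPKM in anterior tissue and at 6.77 FPKM in posterior (authors' deposited table, q = 0.00776). PKD1, which encodes polycystin-1, a partner of the channel polycystin-2, was at 1.33 and 2.01 FPKM (authors' deposited table, q = 0.0197). Among 21 tested calcium entry, store and pump genes, ATP2A3, a calcium pump of the endoplasmic reticulum, was at 4.59 and 11.0 FPKM (authors' deposited table, q = 0.00139). ITPR3, a calcium release channel of that store, was at 3.60 and 2.33 FPKM (authors' deposited table, q = 0.00776). Its relatives ITPR2, at 6.87 and 8.97 FPKM, and ITPR1, at 3.95 and 4.21 FPKM, had higher values in posterior. Neither of these relatives was called (authors' deposited table, q = 0.0720 and 0.884). The genes of store-operated entry were not called, with STIM1 at 23.0 and 21.9 FPKM and ORAI1 at 15.5 and 14.3 FPKM. The marker sums given above also differed between the tissues, and the part of those cells in these calls was not tested.

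**Figure D4:**
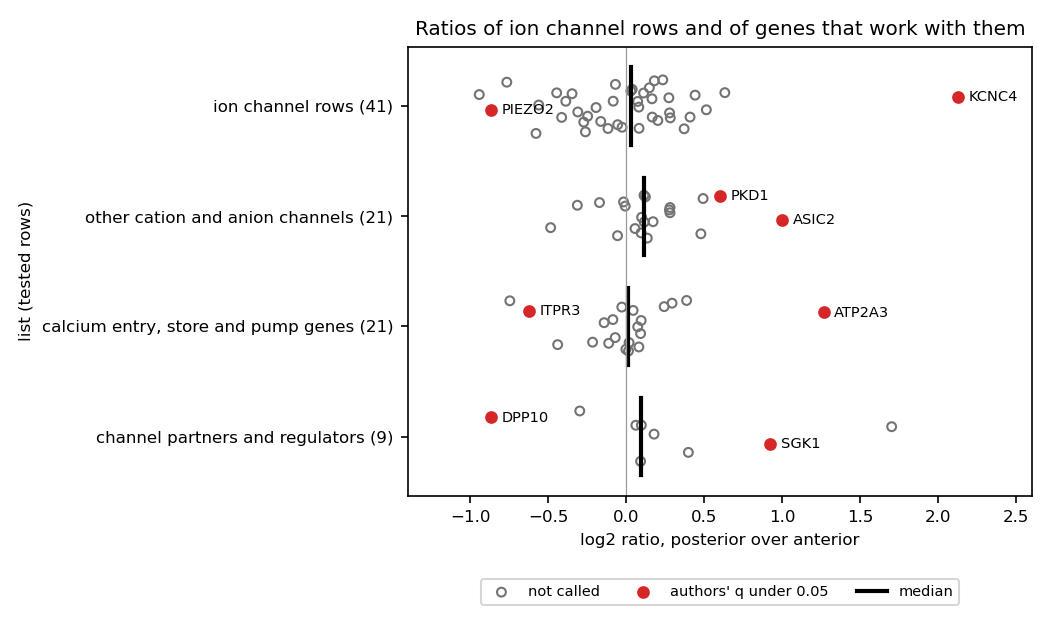
Log2 ratio of posterior over anterior (horizontal) of each tested gene, in rows for the 41 ion channel members and for 3 further lists. These are other channels, calcium entry, store and pump genes, and channel partners and regulators, with 21, 21 and 9 tested. Red points passed q under 0.05, and black bars are medians, from 0.01 to 0.11 log2 units across the rows.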

How the data were processed

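RNA of 6 libraries, 3 per group, was poly(A)-selected from about 200 ng of total RNA and read as 50 nt single-end stranded reads, per the labels' protocols. Per the submitters' processing notes, the tools were Cuffdiff, Cufflinks 2.2.1, TopHat2 2.1.0 and FastQC and the build was galGal4. Per the file headers, the deposited Cuffdiff table holds 1 FPKM value per group, and the authors' p-value and q-value. Counting options and library scaling were not given in the sources used here. These FPKM values depend on transcript length and on how reads of overlapping genes are divided.

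Ratios were computed here from the FPKM values with Python 3.11.15 and pandas 2.3.3, with no pseudocount. The authors' q stands as the only test, and Benjamini-Hochberg adjustment of their p over tested rows gave q within 5.27e-07. The adjustment was tested on simulated p-values, and the search for shared loci was checked by direct comparison of rows of one chromosome. 1 was added to each start of a locus. Named with values were called members, the 10 highest by mean FPKM, the highest of each family and called genes of the 3 lists; other members were added to describe their family, after their values were seen. The members and lists were chosen with earlier results of these data known. Alternatives were other q thresholds, pseudocounts, scalings, a minimum of 1 FPKM, shared loci left out and synonyms from a RefSeq name table of GRCg7b. Values of some members are not reported here.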

Additional observations from a re-analysis of the deposited data

How the results depend on the processing

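The count of 2 called ion channel genes was the same at a q threshold of 0.01, with a minimum mean of 1 FPKM, without rows that share a locus, with 1 row per symbol and with members found through synonyms. Most of these settings had little or no room to change it. Both called genes were at the lowest q and share no locus. Every tested member had a mean of at least 1.35 FPKM, and the repeated symbols were not tested. At a q threshold of 0.1 the count was 4, with CACNA1G and KCNK5 added. After Bonferroni adjustment it was 0, as was the count of 6 called genes that work with the channels, because the smallest p-value of the authors' deposited table, 5e-05, cannot pass over 10529 rows. The median log2 ratio of the members was 0.03, and -0.12 over all 107 rows above 0 in both groups. Of 22 named genes with a ratio, only TRPC4AP changed sign, from -0.03 to 0.0011 with both groups rescaled to equal FPKM totals. No paired analysis was possible because the table gives 1 value per group, and for the same reason leaving out a library was not run. Depth and the spread between libraries are unknown, which limits every value here.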

Other observations

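A RefSeq name table of GRCg7b gave channel names to 3 further rows listed under older symbols. IRK1, there KCNJ2, an inward rectifier that sets the resting voltage of muscle cells, measured 1.62 FPKM in anterior tissue against 1.51 FPKM in posterior tissue (authors' deposited table, q = 0.953). SK2, there KCNN2, was at 1.03 and 1.07 FPKM and was not tested. cKv1.1, there KCNA3, was at 1.32 and 0.535 FPKM and was not tested.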
